A study of Mus musculus with 12 samples.

Results

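The genes described here encode the extracellular matrix, its cell-surface receptors and the metalloproteases that cut both. They were chosen by symbol, with earlier results of these data known: collagens (Col followed by a digit), laminin chains (Lama, Lamb, Lamc), integrin subunits (Itga, Itgb), fibrillins, fibulins, thrombospondins, MMP, ADAM, ADAMTS and TIMP genes, Hmcn1 and Prelp. Of 2718 genes named in the deposited tables, 42 matched. The expression table of neural progenitor cells (NPC) lists 36 of them and that of mouse embryonic fibroblasts (MEF) lists 8, with 3 in both. The splicing tables name 2, Adamts10 and Adamts7.

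The study holds 12 RNA-seq libraries, 3 in each of 4 groups: NPC and MEF, each with ethanol or with 50 nM 4-hydroxytamoxifen (4-OHT) for 24 h. All 4 groups carry the genotype Prmt5 F/FER on a mixed C57BL/6 X 129S1/SvlmJ background, in which 4-OHT induces loss of Prmt5, the gene of an arginine methyltransferase that acts on spliceosomal Sm proteins and on histones. NPC were grown as neurospheres from E14.5 cortex with EGF and FGF and treated at day 4, and MEF came from E14.5 embryos and were grown to confluence at passage 1. The promoter behind the tamoxifen-inducible part is not given in the sources used here. No group is labelled as cells given 4-OHT without the conditional allele, so effects of 4-OHT and of Prmt5 loss cannot be told apart. Prmt5 itself went from 33.4 to 4.92 RPKM in NPC and from 21.0 to 3.76 RPKM in MEF (the authors' deposited table).

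Matrix proteins are secreted and assemble outside the cell, either into thin basement membranes of type IV collagen, laminin, nidogen and proteoglycans or into interstitial fibres. Integrins are pairs of an alpha and a beta subunit that bind these proteins and connect them to the cytoskeleton. MMP, ADAM and ADAMTS enzymes are zinc-dependent proteases that release, mature or degrade matrix and membrane proteins, and TIMP proteins inhibit them. In the developing cortex, radial progenitors are anchored by integrins to the laminin-rich basement membrane at the pial surface.

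The expression tables give 1 RPKM value (reads scaled by transcript length and by the number of mapped reads) for each arm, so no spread between libraries can be computed for any gene. Listed genes have a deposited Cuffdiff p under 0.05, not adjusted for multiple testing, and a change of more than 1.5-fold. A gene that is not listed has no value here and may have been untested, above that p or less changed. As a stricter criterion, the largest value that the Benjamini-Hochberg adjusted Cuffdiff p can take was computed with all 55341 annotated gene names counted as tested. Below, "rose" and "fell" are kept for genes with that bound under 0.05, and the others are called listed higher or lower. In bulk RNA, a change in the share of a cell type cannot be told apart from a change of RNA per cell.

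In NPC most listed matrix and receptor genes were higher after 4-OHT. Of the 36 listed members 30 were higher with 4-OHT and 6 lower, beside 56.6% higher among all 2416 listed genes. With the adjusted bound under 0.05, 20 rose and 5 fell, and 73.8% of all listed genes met that bound. All 8 genes of basement membrane collagens and laminins, all 3 other collagens and all 6 integrin subunits on the list were higher. The median log2 fold change was 0.85 over the members and 0.66 over all listed genes, and the median fold in either direction was 1.92 and 1.82. For comparison of the share listed at all, 36 of the 182 protein-coding names that match the rule were listed, beside 9.77% of all protein-coding names. How many of either were tested is not known. An absolute log2 fold change of at least 1 was reached by 15 members, beside 35.6% of all listed genes.

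Low genes on the list were mostly higher whatever their kind, and members were read against genes of the same level. Under 1 RPKM in the higher arm, 15 of 17 members were higher, beside 80.6% of all listed genes at that level. From 1 to under 5 RPKM it was 11 of 12 members beside 63.2%. At 5 RPKM or more it was 4 of 7 members beside 39.5%. Members have long transcripts, with a median of 5807 bases for the longest annotated transcript against 3392 over the listed genes with a length, so a given RPKM stands for more reads in them. Even so, 6 members came to under 1 read per 1000000 mapped reads in both arms.

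**Figure D1:**
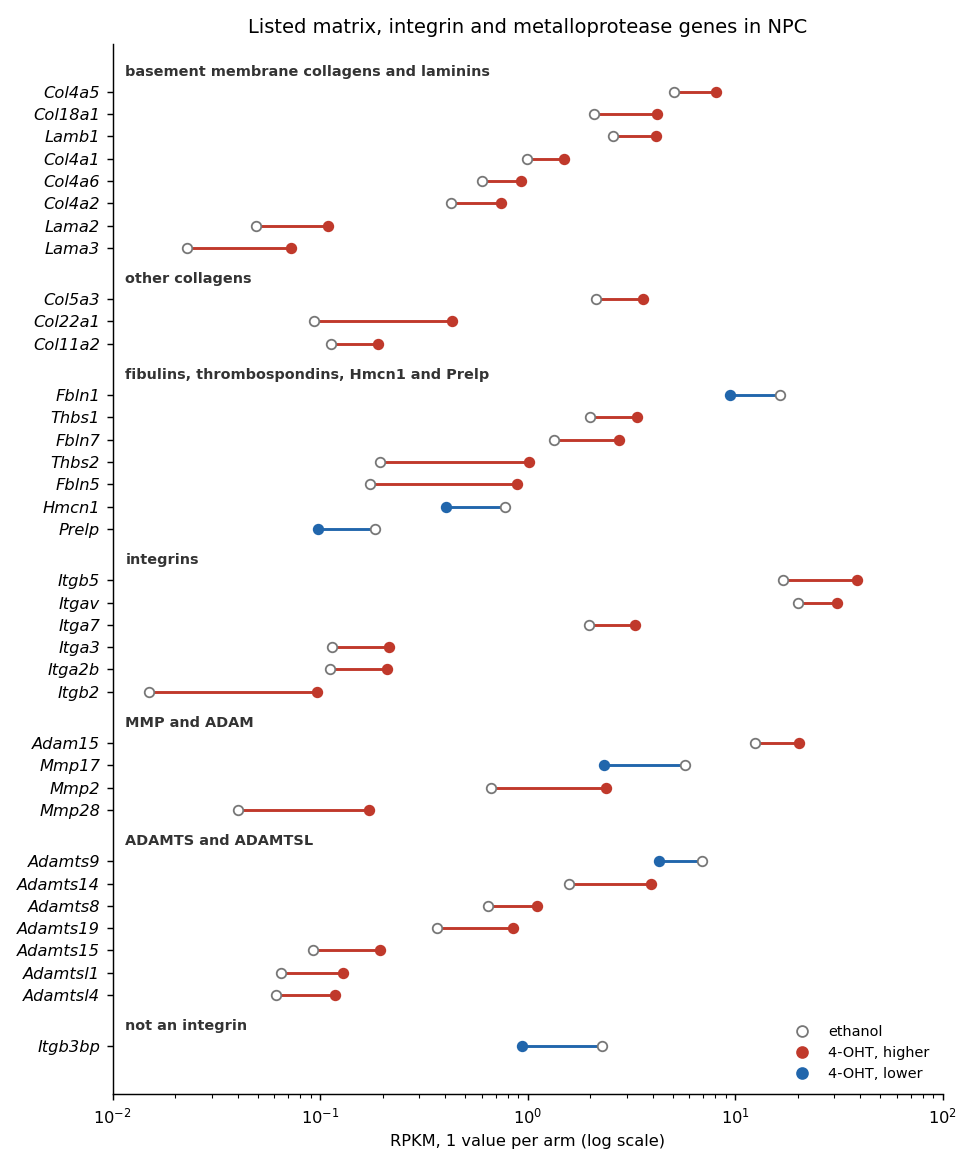
RPKM of the 36 members listed in NPC, on a log axis. Open circles are ethanol and filled circles 4-OHT (red higher, blue lower). There is 1 value per arm from the authors' deposited table, and no error bars because no values per library are given. Integrins and basement membrane genes all lie to the right of their ethanol value, from 0.0968 RPKM with 4-OHT for Itgb2 to 38.7 for Itgb5 among the integrins.

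**Figure D2:**
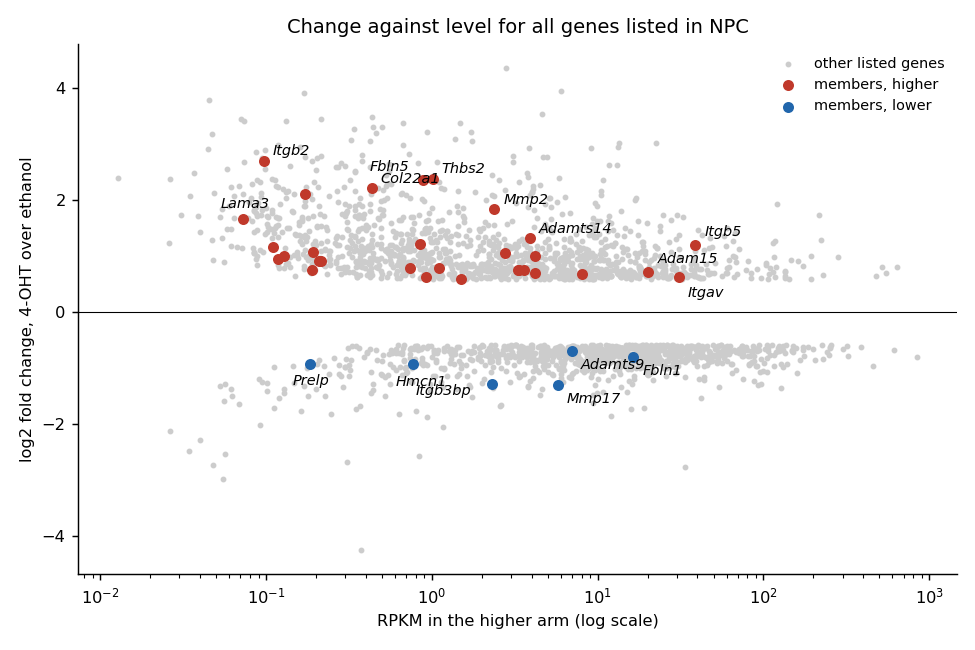
Log2 fold change of 4-OHT over ethanol against RPKM in the higher arm (log axis) for all genes listed in NPC with a value above 0 in both arms, with members in red or blue. The empty band around 0 is the 1.5-fold listing limit, and members at 5 RPKM or more are 4 higher and 3 lower.

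The listed basement membrane gene with the highest RPKM was Col4a5, which encodes the alpha 5 chain of type IV collagen. The authors' deposited table gives it 5.07 RPKM with ethanol and 8.07 with 4-OHT, a log2 fold change of 0.67. Col18a1, whose collagen carries the endostatin fragment, rose from 2.09 to 4.19 RPKM, and the laminin beta 1 gene Lamb1 from 2.57 to 4.17 RPKM per the authors' deposited table. These 3 genes had log2 fold changes of 0.67, 1.00 and 0.70 in that order.

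The 4 listed type IV collagen genes form 2 pairs of neighbouring genes that are transcribed away from each other, Col4a1 with Col4a2 and Col4a5 with Col4a6. Col4a1 and Col4a2, the chains of the network found in nearly all basement membranes, were at 0.994 and 0.429 RPKM with ethanol and 1.496 and 0.740 with 4-OHT (the authors' deposited table). Col4a6 was at 0.604 and 0.927 RPKM per the authors' deposited table. The log2 fold changes were 0.59 for Col4a1 and 0.79 for Col4a2, and 0.67 for Col4a5 and 0.62 for Col4a6, so within each pair both genes were higher by less than 2-fold. The adjusted bound was under 0.05 for Col4a2 (0.0252) and Col4a5 (2.58e-04), and above it for Col4a1 (0.0604) and Col4a6 (0.114), by Benjamini-Hochberg adjustment of the Cuffdiff p. Col4a1 lies just inside the 1.5-fold listing limit.

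The members include a further pair of neighbours arranged head to head, Adamts15 and Adamts8, whose starts lie 20110 bases apart in GRCm38. Adamts8 was at 0.646 RPKM with ethanol and 1.11 with 4-OHT, and Adamts15 at 0.0924 and 0.193 (the authors' deposited table). All 3 pairs were thus higher in both genes. Among the 63 pairs of protein-coding head-to-head neighbours listed in NPC, both genes had the same direction in 36, or 57.1%, of which 20 were higher in both.

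The starts of Col4a1 and Col4a2 lie 21 bases apart in RefSeq, so that their 300-base promoter windows (250 bases before the start and 50 after) share 78 bases, while those of Col4a5 and Col4a6 lie 1343 bases apart. Sequences upstream of the second pair are shown because both genes were higher together from starts that do not overlap. They hold the 250 bases before each start from RefSeq (GRCm38.p6), at chrX:141475169-141475418 on the plus strand for Col4a5 and chrX:141474077-141474326 on the minus strand for Col4a6, read 5′ to 3′. Capitals mark GGGCGG (the GC box), CCAAT and CCCTCCCC on either strand. In Col4a5 the matches to GGGCGG and CCCTCCCC overlap, and CCAAT stands apart.
Col4a5: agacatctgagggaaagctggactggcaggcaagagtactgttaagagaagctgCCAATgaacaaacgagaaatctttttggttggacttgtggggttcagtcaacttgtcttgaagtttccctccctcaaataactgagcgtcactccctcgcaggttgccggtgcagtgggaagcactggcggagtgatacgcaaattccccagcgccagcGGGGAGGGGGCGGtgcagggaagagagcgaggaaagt
Col4a6: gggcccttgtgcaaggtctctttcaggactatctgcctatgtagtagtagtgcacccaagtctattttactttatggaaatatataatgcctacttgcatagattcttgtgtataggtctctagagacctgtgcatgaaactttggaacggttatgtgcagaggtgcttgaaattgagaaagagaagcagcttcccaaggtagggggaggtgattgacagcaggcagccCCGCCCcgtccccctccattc

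GGGCGG was found in the windows of all 4 type IV collagen genes, beside 35.7% of 32851 RefSeq windows. CCAAT and CCCTCCCC were each found in 3 of the 4, all but Col4a6, beside 37.4% and 10.8% of windows. TATAAA was in none of the 4 windows, beside 13.6%. The motifs were chosen after the sequences were seen, the windows of Col4a1 and Col4a2 overlap, and a match is a description of the letters only.

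The listed laminin alpha genes were at very low levels. Lama3, the alpha chain of epidermal laminin, went from 0.0229 to 0.0722 RPKM, and Lama2, the alpha chain of muscle and Schwann cell laminin, from 0.0492 to 0.109 RPKM per the authors' deposited table. With the longest transcript of 10548 bases, the Lama3 values stand for 0.241 and 0.762 reads per 1000000, and those of Lama2 for 0.473 and 1.05. Their bounds were 0.00420 and 0.0372 by Benjamini-Hochberg adjustment of the Cuffdiff p, and the size of the libraries is unknown.

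Among the other collagens, Col5a3, a chain of type V collagen, was highest and rose from 2.14 to 3.61 RPKM (the authors' deposited table). Col22a1, whose collagen is known from muscle-tendon junctions, rose from 0.0934 to 0.433 RPKM per the authors' deposited table, the largest relative change of any listed collagen at 4.64-fold. Col11a2, a cartilage collagen gene, was listed higher at 0.112 and 0.189 RPKM (the authors' deposited table), with a bound of 0.704 by Benjamini-Hochberg adjustment of the Cuffdiff p. The fibrillar collagen genes Col1a1, Col1a2 and Col3a1, which dominate connective tissue, are not on the list and have no value here.

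Among fibulins, thrombospondins, Hmcn1 and Prelp, 4 listed genes were higher and 3 lower, or 57.1% higher, beside 56.6% of all listed genes. Thbs2 and Fbln5, which encode a thrombospondin and a fibulin needed for elastic fibres, rose 5.18-fold and 5.11-fold. In the authors' deposited table they went from 0.195 to 1.01 RPKM and from 0.174 to 0.888 RPKM, each with a deposited p of 0. Thbs1, which with Thbs2 is secreted by astrocytes and promotes synapse formation, rose from 1.99 to 3.36 RPKM per the authors' deposited table. Fbln7 rose from 1.33 to 2.75 RPKM (the authors' deposited table). Fbln1 moved the other way and from a higher level, from 16.4 to 9.44 RPKM, a log2 fold change of -0.80 per the authors' deposited table. Hmcn1, which encodes the very large matrix protein hemicentin 1, fell from 0.774 to 0.405 RPKM (the authors' deposited table). Prelp, a leucine-rich proteoglycan gene, was listed lower at 0.185 and 0.0973 RPKM per the authors' deposited table, with a bound of 0.475 by Benjamini-Hochberg adjustment of the Cuffdiff p. Of the 3 fibulins and 2 thrombospondins listed, Fbln1 was the only one lower. With 4-OHT its level of 9.44 RPKM was still above those of Fbln7 and Fbln5.

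The highest levels of any member in NPC belonged to the integrin subunits Itgav and Itgb5, which pair with each other to form a vitronectin receptor. Itgb5 rose from 16.9 to 38.7 RPKM and Itgav from 20.0 to 30.8 RPKM, with log2 fold changes of 1.20 and 0.62 (the authors' deposited table). Itgb5 was thus below Itgav with ethanol and above it with 4-OHT, on a scale corrected for transcript length but without an error. Itga7, a laminin receptor subunit known from muscle, rose from 1.96 to 3.29 RPKM per the authors' deposited table.

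The 3 other integrins were low. The laminin receptor gene Itga3 and the platelet integrin gene Itga2b were listed higher at 0.114 and 0.215 RPKM and at 0.111 and 0.209 RPKM (the authors' deposited table). Itgb2, the beta subunit of leukocyte integrins, was at 0.0149 and 0.0968 RPKM per the authors' deposited table. Its 6.50-fold ratio was the largest of any member and stands for 0.0443 and 0.288 reads per 1000000. Of 31 names beginning with Itga or Itgb 7 are listed in NPC, the last being Itgb3bp. Despite its symbol, Itgb3bp encodes a centromere protein. It fell from 2.29 to 0.939 RPKM (the authors' deposited table).

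Mmp2, which encodes the gelatinase A that cuts type IV and denatured collagen, rose from 0.666 to 2.38 RPKM per the authors' deposited table, a 3.57-fold change. Mmp17, the gene of a membrane-anchored MMP, fell from 5.74 to 2.33 RPKM (the authors' deposited table), the largest fall of any member (log2 fold change -1.30). Mmp17 was thus far above Mmp2 with ethanol, and with 4-OHT both lay near the same level. Mmp28, or epilysin, was listed higher at 0.0401 and 0.172 RPKM per the authors' deposited table. Adam15, a membrane-anchored protease with a disintegrin domain, rose from 12.4 to 20.2 RPKM per the authors' deposited table and was the highest protease gene listed. It is the 1 listed gene of 33 names beginning with Adam and a digit. None of the 4 Timp genes is listed in either cell type, nor is a fibrillin gene, and without a value nothing can be said of their change.

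ADAMTS genes encode secreted proteases with thrombospondin repeats, and ADAMTSL genes encode relatives without the protease domain. Adamts14, which trims the amino end of procollagen, rose from 1.58 to 3.92 RPKM and Adamts19 from 0.366 to 0.846 RPKM (the authors' deposited table). Adamts8 also rose, with a bound of 0.0458 by Benjamini-Hochberg adjustment of the Cuffdiff p. Adamts9, which cleaves the proteoglycan versican, fell from 6.95 to 4.29 RPKM per the authors' deposited table and had the highest RPKM of the 7 family members listed in NPC in both arms. Adamts15, Adamtsl1 and Adamtsl4 were listed higher at 0.193, 0.129 and 0.118 RPKM with 4-OHT per the authors' deposited table.

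Genes that work with these proteins were counted from 5 further lists. Of 45 listed genes among 199, 38 were higher, and 29 rose and 6 fell by the adjusted bound, beside 56.6% higher and 73.8% within the bound among all listed genes. Matrix glycoproteins had 19 higher and 2 lower, or 90.5% higher, at a median of 0.929 RPKM in the higher arm, and 80.6% of all listed genes under 1 RPKM were higher. Sparcl1, a glycoprotein of astrocytes, rose from 48.9 to 118 RPKM, its relative Sparc from 32.9 to 71.4 RPKM and osteopontin, Spp1, from 10.2 to 15.7 RPKM (the authors' deposited table). The lower members were Ltbp4, a latent TGF-beta binding protein gene, from 3.13 to 1.62 RPKM, and the axon guidance gene Slit2, listed at 0.422 and 0.265 RPKM per the authors' deposited table.

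Of 10 listed proteoglycan genes 6 were higher and 4 lower, or 60.0% higher, beside 56.6% of all listed genes. The heparan sulfate proteoglycan genes Gpc4 and Sdc4 rose from 7.97 to 18.9 and from 5.71 to 17.6 RPKM (the authors' deposited table). Their relatives Gpc1 and Sdc1 fell from 29.2 to 17.4 and from 13.9 to 8.27 RPKM per the authors' deposited table. Brevican, Bcan, a brain proteoglycan gene, fell from 122 to 78.3 RPKM (the authors' deposited table). A further glypican gene, Gpc5, rose at a low level, from 0.245 to 0.644 RPKM (the authors' deposited table; chosen after its value was seen).

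Of 6 listed genes of collagen processing 5 were higher, beside 56.6% of all listed genes. Ddr2, a collagen receptor kinase gene, rose from 1.66 to 4.55 RPKM, and the procollagen C-proteinase enhancer gene Pcolce from 0.892 to 1.89 RPKM, while Pcolce2 fell from 2.05 to 0.897 RPKM per the authors' deposited table. All 6 listed genes of intracellular integrin adhesion rose, beside 56.6% higher and 73.8% within the adjusted bound among all listed genes. Among the 6 were Parvb, from 2.82 to 4.73 RPKM, and the tensin gene Tns1, from 1.54 to 2.97 RPKM (the authors' deposited table). From 1 to under 5 RPKM, where the medians of both lists lay, 63.2% of all listed genes were higher. Plau, the urokinase gene, rose from 1.08 to 2.21 RPKM per the authors' deposited table.

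**Figure D3:**
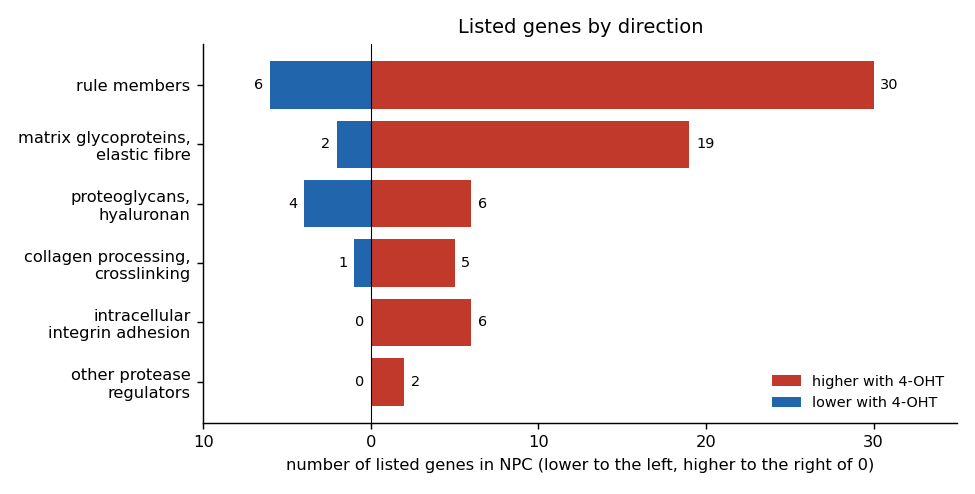
Number of genes listed in NPC as higher (red, right of 0) or lower (blue, left of 0) with 4-OHT, for the members and the 5 related lists. Members show 30 higher and 6 lower, matrix glycoproteins 19 and 2, and proteoglycans 6 and 4. Of all genes listed in NPC 56.6% were higher.

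Some markers of cell types other than progenitors are listed in the same comparison, and those of fibroblasts, endothelium and macrophages all had an adjusted bound above 0.05. Of 13 fibroblast markers Postn alone was listed, at 0.214 and 0.396 RPKM, and of 9 endothelial markers Flt1 and Tek, with a summed level of 0.146 and 0.258 RPKM (the authors' deposited table). Of 9 macrophage markers Cd14 was listed, at 0.569 and 1.12 RPKM per the authors' deposited table, beside the low leukocyte integrin Itgb2. Listed glial markers were higher, beside 56.6% of all listed genes: 3 of 6 astrocyte markers with a summed 68.9 and 122 RPKM, and 4 of 8 oligodendrocyte markers with 7.58 and 21.8 RPKM (the authors' deposited table). The astrocyte sum is mostly Aldh1l1 (67.7 and 118 RPKM), while Gfap was at 0.221 and 1.10 RPKM and Aqp4 at 1.00 and 2.32 RPKM per the authors' deposited table. Of 9 neuron markers 3 were listed higher and 1, Snap25, lower. Their summed level was 6.25 and 11.0 RPKM, mostly Tubb3 (4.81 and 9.59 RPKM). Of 8 mural cell markers Notch3 alone was listed, and it rose from 6.52 to 10.5 RPKM per the authors' deposited table. Its bound was 3.06e-05 by Benjamini-Hochberg adjustment of the Cuffdiff p. The part of all these markers in the changes of the matrix genes was not tested. Of 9 progenitor markers Hes5 was listed, from 15.8 to 4.77 RPKM (the authors' deposited table), and markers that are not listed have no value, so the labelled cell type could not be checked further.

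In MEF all 8 listed members were higher with 4-OHT, beside 50.5% of the 111 listed genes. Prelp was the highest, at 21.0 RPKM with ethanol and 34.7 with 4-OHT per the authors' deposited table. Itga8, an integrin subunit of mesenchymal cells, went from 8.28 to 15.5 RPKM, a log2 fold change of 0.90 (the authors' deposited table). The other members were 5 genes of the ADAMTS family and Hmcn1. No member had an adjusted bound under 0.05, and each was at 1 (Benjamini-Hochberg adjustment of the Cuffdiff p), beside 0.901% of the listed genes, which is Prmt5 alone. Deposited Cuffdiff p-values of the members ran from 0.00663 for Itga8 to 0.0424 for Adamtsl3. These are listings, and it is not shown that any of them holds after adjustment.

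The ADAMTS family made up 5 of the 8, beside 24 of the 183 gene names that match the rule. Adamts12 went from 9.17 to 16.5 RPKM, Adamtsl3 from 11.9 to 18.7 RPKM and Adamts10, which binds fibrillin microfibrils, from 8.22 to 13.3 RPKM per the authors' deposited table. Adamtsl1 went from 1.37 to 2.58 RPKM, and Adamts17 was very low at 0.0258 and 0.0740 RPKM (the authors' deposited table). At 5 RPKM or more, 5 of 5 members were higher, beside 32.9% of the listed genes at that level. Hmcn1 and Adamtsl1 lay between 1 and 5 RPKM, where 82.6% of listed genes were higher, and Adamts17 lay under 1 RPKM, where 86.7% were. Only Adamts17 reached an absolute log2 fold change of 1, beside 40.5% of all listed genes. Of all protein-coding names 0.47% are listed in MEF, beside 8 of the 182 that match the rule. No collagen, laminin, MMP, ADAM, fibulin or thrombospondin gene is listed in MEF. From the related lists Eln, the elastin gene, was at 25.3 and 51.1 RPKM per the authors' deposited table. Beside it, 2 of 8 mural cell markers are listed, Myh11 and Rgs5, with a summed level of 12.0 and 24.9 RPKM. Eln and both markers had an adjusted bound above 0.05, and 0 of 13 fibroblast markers are listed. The part of these markers was not tested.

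Hmcn1, Prelp and Adamtsl1 were listed in both cell types. For Hmcn1 the log2 fold change was -0.93 in NPC and 0.89 in MEF, at 0.774 and 1.07 RPKM with ethanol (the authors' deposited table). Prelp had -0.92 and 0.72, at 0.185 RPKM in NPC and 21.0 in MEF with ethanol per the authors' deposited table. Adamtsl1 was higher in both, with 1.00 and 0.91, at 0.0646 and 1.37 RPKM with ethanol (the authors' deposited table). Levels of the 2 tables were normalized separately and are set side by side without a test. The changes differed by -1.83 for Hmcn1, -1.65 for Prelp and 0.09 for Adamtsl1 (log2, NPC minus MEF). No p is given for these differences. Both tables list only genes with a deposited Cuffdiff p under 0.05, so for a gene listed in opposite directions a test built from those p-values would pass by construction. Opposite directions were seen for 7 of the 49 genes listed in both, and 2 of the 7 are Hmcn1 and Prelp. Both were chosen by their single names with earlier results known, so this share is no result about the members.

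**Figure D4:**
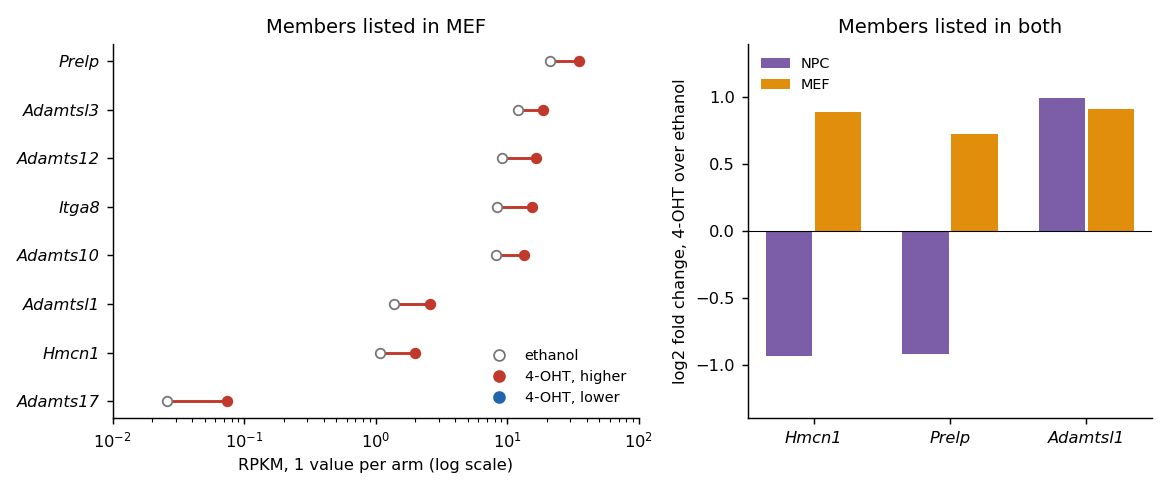
Left, RPKM of the 8 members listed in MEF on a log axis, with ethanol as open and 4-OHT as filled circles, all to the right of their ethanol value. Right, log2 fold change of the 3 members listed in both cell types, with Hmcn1 at -0.93 in NPC and 0.89 in MEF, and Prelp at -0.92 and 0.72 per the authors' deposited table.

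The splicing tables list 2 members, both ADAMTS genes and both with more retention of a short intron after 4-OHT. The inclusion level is the fraction of transcripts that keep the intron, computed by the authors from reads of each form and their lengths, and each listed pair is 1 ethanol and 1 4-OHT library. Both events are listed in 2 of 3 pairs, and the remaining pair has no value. Since pairs were listed for a difference, their means are biased away from 0. In total 79 of 82 retained introns listed in NPC, or 96.3%, and 19 of 21 in MEF, or 90.5%, were more retained with 4-OHT.

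The Adamts10 intron has 90 bases and lies at chr17:33675119-33675208 on the plus strand in mm9, between coding exons of 106 and 147 bases. It is intron 9 of 24 of the spliced coding transcript in GENCODE M21, matched within the gene by the lengths of the intron and both exons. The Adamts7 intron has 177 bases and lies at chr9:90088704-90088880 on the plus strand in mm9, between exons of 841 and 227 bases, and is intron 19 of 24. Among retained introns listed in NPC the median was 221 bases, and 13 of 82 were no longer than the Adamts10 intron. Both sequences are shown 5′ to 3′ because they differ in what retention does to the reading frame. They come from GENCODE M21 transcripts that keep the intron, with 20 exon bases on each side, and capitals mark the first and last 2 intron bases and, in Adamts10, the stop codon.
Adamts10: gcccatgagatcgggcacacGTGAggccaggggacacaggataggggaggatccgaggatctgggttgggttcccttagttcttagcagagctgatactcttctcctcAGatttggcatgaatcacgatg
Adamts7: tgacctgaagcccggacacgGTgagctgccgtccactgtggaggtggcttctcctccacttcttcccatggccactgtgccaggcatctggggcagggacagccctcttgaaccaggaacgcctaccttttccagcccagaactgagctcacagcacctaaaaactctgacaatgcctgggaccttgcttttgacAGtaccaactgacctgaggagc

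In Adamts10 the reading frame meets a TGA stop codon at bases 2 to 4 of the intron. The intron lies inside the codons of the zinc-binding motif of the protease, with 2 of its 3 histidine codons before the intron and 1 after it. Of 4 annotated transcripts that keep this intron, 3 are classed as targets of nonsense-mediated decay and 1 as a retained intron. In Adamts7 the reading frame passes through all 177 bases with 0 stop codons, and the 3 histidine codons of the motif all lie before the intron. Of 2 annotated Adamts7 transcripts that keep it, 1 is classed as protein-coding and 1 as a target of nonsense-mediated decay. No exon of another annotated gene overlaps either intron.

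In NPC the Adamts10 intron was retained at 0.491 and 0.480 in the ethanol libraries and at 1 in both 4-OHT libraries (the authors' deposited table). The means were 0.485 ± 0.008 (SD, n = 2) and 1, a difference of 0.514. Inclusion reads were 63 and 23 with ethanol and 110 and 77 with 4-OHT, and exclusion reads were 21 and 8 with ethanol and 0 and 0 with 4-OHT. With the 3 exclusion reads that a count of 0 allows, summed over the 4-OHT libraries, the level would be 0.952, for counting error only. The deposited MATS p-values of the pairs were 4.80e-08 and 8.36e-05. Each pair was listed for its difference, which favours a separation of the arms, so none is read from these levels. A level of 1 is also the ceiling, so the spread of the 4-OHT libraries cannot be judged. The pair without a value is not in either spread.

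In MEF the same intron was at 0.483 and 0.391 with ethanol and 0.734 and 0.769 with 4-OHT per the authors' deposited table. The means were 0.437 ± 0.065 and 0.752 ± 0.025 (SD, n = 2), a difference of 0.314, with 28 exclusion reads in the ethanol and 20 in the 4-OHT libraries. Deposited MATS p-values were 0.0223 and 0.0301. Exclusion reads were thus still present with 4-OHT in MEF, and the difference between the cell types was not tested. Adamts10 as a whole was listed at 8.22 and 13.3 RPKM in MEF per the authors' deposited table and is not listed in NPC. It is 1 of 10 retained introns listed in both cell types.

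In NPC the Adamts7 intron was at 0.331 and 0.408 with ethanol and 0.583 and 0.678 with 4-OHT (the authors' deposited table). The means were 0.369 ± 0.054 and 0.630 ± 0.067 (SD, n = 2), a difference of 0.261. As for Adamts10, no separation of the arms is read from levels of pairs that were listed for a difference. Exclusion reads were 42 and 32 with ethanol and 26 and 17 with 4-OHT, and the deposited MATS p-values were 0.00225 and 0.00387. Adamts7 is not in either expression table. With 2 libraries against 2, the smallest two-sided p of an exact permutation test is 0.333, so no test was run on these levels.

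**Figure D5:**
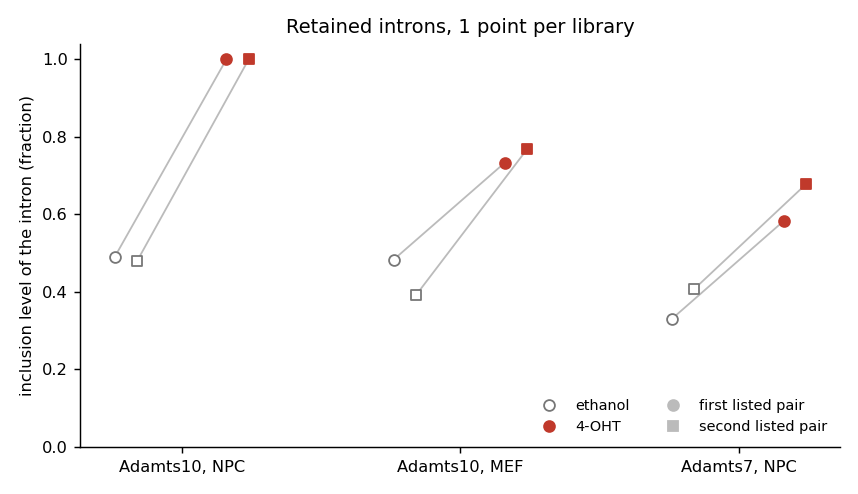
Inclusion level of the retained introns, 1 point per library (open, ethanol; filled, 4-OHT; lines join the libraries of a listed pair, n = 2 per arm). Adamts10 reached 1 in both 4-OHT libraries of NPC and 0.734 and 0.769 in MEF, and Adamts7 reached 0.583 and 0.678 in NPC.

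The library kit named in the labels does not mark strand, so reads of overlapping antisense genes cannot be told apart. Annotated antisense exons cover 1381 bases of Adamts9, 1263 of Adam15, 634 of Itgav, 631 of Lama2, 489 of Adamts8, 466 of Mmp28, 399 of Hmcn1, 398 of Itgb3bp, 372 of Itga8 and 350 of Prelp. A further 424 bases of Adamts9 are covered by another gene, and Thbs1 (208), Lama3 (197), Adamts7 (122), Col4a2 (43), Col4a1 (22), Col22a1 (16) and Itga7 (9) share fewer bases. Values of these genes are uncertain to that extent.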

How the data were processed

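The submitters' processing notes name CASAVA 1.8, Bowtie2 2.0.0.6, TopHat2 2.03 and Cuffdiff 2.02, with mm9 as the genome build. Expression tables hold RPKM for each arm, the log2 fold change and the unadjusted p-value, per the file headers. Splicing tables hold read counts of each form, the inclusion level as a fraction and its difference (ethanol minus 4-OHT, a score between -1 and 1), per the file headers. The program behind the splicing p-value, MATS, is named in the table's name, and its version is not given in the sources used here.

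Members were found by symbol with Python 3.11.15, and all 42 are in GENCODE M21. Members and lists were chosen with earlier results of these data known. Every listed member may be named, with values for those at 1 RPKM or more, spliced or listed in both cell types, and by count otherwise with the largest changes. Values of other members under 1 RPKM were added after they were seen. In related lists up to 3 genes per direction with the highest RPKM are named. The design allowed a test over libraries if tables held them. They hold 1 value per arm, so the deposited p-value was used and bounded by Benjamini-Hochberg adjustment over 55341 names. A test of differences between cell types from deposited p-values was computed and is not used, since the listing by p-value fixes its outcome for genes listed in opposite directions. Calculations were tested on simulated data. RPKM times the longest transcript gave reads per 1000000. The depth of the libraries is unknown. The labels do not say that libraries are separate cultures, so their spread may be technical. Pair codes match no label, and columns carry no replicate number. Intron sequences were read from GENCODE transcripts (GRCm38) and coordinates are those of the files (mm9). A gene of the related lists is not reported here by name.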

Additional observations from a re-analysis of the deposited data

Results flagged for a closer look

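Hmcn1 and Prelp are listed in opposite directions in the 2 cell types. The log2 fold change of Hmcn1 was -0.93 in NPC and 0.89 in MEF (the authors' deposited table), a difference of -1.83. For Prelp it was -0.92 and 0.72 (the authors' deposited table), a difference of -1.65. The differences were not tested over libraries, and listing at a deposited p under 0.05 in both tables already fixes the outcome of a test built from those p-values. Hmcn1 passed the adjusted bound in NPC and not in MEF, and Prelp passed it in neither cell type, with 0.667 and 0.352 reads per 1000000 in NPC.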

How the results depend on the processing

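Of 28 alternatives run on these counts and inclusion levels, 22 stayed within 1.5 times the count or within 1 SD between libraries. The others removed genes by construction. No alternative was labelled as reversed, which is no support. Counts were compared by size only, and in MEF no subset of members could reverse. The replicate block repeats the main mean, and each pair left in was itself listed for its difference. In NPC, of 30 higher members, 15 were left at 1 RPKM or more (4 lower), 4 at 5 RPKM or more (3 lower) and 13 with an absolute log2 fold change of at least 1 (2 lower). In MEF, of 8 higher members, 5 were left at 5 RPKM or more, 2 with a deposited p under 0.01 and 1 with an absolute log2 fold change of at least 1. The adjusted bound left 0 members in MEF, where all 8 had a deposited Cuffdiff p under 0.05, and this setting is not among the 28. With a pseudocount of 0.1 RPKM, 21 of the 30 higher and 5 of the 6 lower NPC members still reached 1.5-fold. Leaving out each pair gave differences in inclusion level of 0.509 to 0.520 for Adamts10 and 0.252 to 0.270 for Adamts7 in NPC, and 0.251 to 0.378 for Adamts10 in MEF. With the pair code as a replicate block the differences were 0.514, 0.261 and 0.314, and exact sign flips of 2 pairs cannot give a p under 0.5. RPKM values given once per arm allow neither a block nor a left-out library. Without library totals, precision at low RPKM cannot be given.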
